A study of Mus musculus with 30 samples.

Results

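The genes described here are 10 genes of the hormone-secreting cells of the gut lining. Tph1, Ddc, Slc18a1 and Slc6a4 make, store or take up serotonin, Chga and Chgb encode proteins of the secretory granule, and Gcg, Pyy, Insl5 and Sst encode peptide hormones. They were chosen by name and make up 10 of the 46078 genes in the count table, and each matched a single gene identifier. Colon RNA of 30 C57BL/6J mice was sequenced, with 1 library per animal and 6 animals in each of 5 groups. CD F and CD M were females and males on a control diet, and HFD F and HFD M were females and males on a high fat diet, all for 13 weeks and all injected with vehicle. HFD+E2 M were males on the high fat diet that received 17β-estradiol (E2) at 0.5 mg/kg in 9 intraperitoneal injections. The females kept their ovaries, and no group of females given E2 is among these libraries. The RNA came from colon tissue, with no sorting of cells named in the labels.

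Enteroendocrine cells are rare epithelial cells scattered along the crypts, and they release hormones into the blood and onto nearby nerves. Enterochromaffin cells, the type that makes serotonin, use Tph1 for the rate-limiting step from tryptophan and Ddc for the step that follows, and they load the product into granules with the transporter Slc18a1. Serotonin drives peristalsis and secretion in the colon and is cleared by Slc6a4, the transporter of epithelial and nerve cells. L cells, the peptide-hormone type most abundant in the colon, make glucagon-like peptides from Gcg, as well as Pyy and, in the distal colon, Insl5. D cells make Sst, which restrains the other types. In whole tissue, fewer cells of a type and less RNA per cell cannot be told apart.

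All 10 genes were found in all 5 groups, with levels given in TPM, which corrects for the length of a gene and the depth of a library. The order by mean TPM over the 30 libraries ran from Ddc (38.9 ± 8.66, SD, n = 30), Pyy (31.9 ± 7.13), Insl5 (18.5 ± 9.65) and Chgb (18.2 ± 5.46) through Slc6a4 (16.2 ± 4.03), Chga (10.3 ± 3.19) and Gcg (8.35 ± 2.43) to Tph1 (5.53 ± 3.01), Sst (2.28 ± 1.44) and Slc18a1 (1.30 ± 0.558). The depth behind them differed widely. Ddc had from 414 to 1253 reads per library, Tph1 from 20 to 233, Slc18a1 from 27 to 67 and Sst from 2 to 51, so that Sst could be compared least firmly. Insl5 and Tph1 had the widest relative spread among the better counted genes, from 4.29 to 53.0 TPM and from 0.867 to 12.4 TPM. Ddc is also expressed in other epithelial cells and Slc6a4 in absorptive cells, so neither level belongs to enterochromaffin cells alone. Tph2 and Cpa3, the genes looked at here for other serotonin sources, had few reads. Tph2, the form used by neurons, had at most 7 reads in any library, and Cpa3, a protease of mast cells, which also hold serotonin, had between 0 and 32. The genes of the upper gut hormones cholecystokinin (Cck) and neurotensin (Nts) had at most 4 reads in any library, and Neurog3, the factor that starts the enteroendocrine lineage, had at most 9. None of Tph2, Cck, Nts and Neurog3 passed the filter on low counts in any of the 5 comparisons of groups.

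**Figure D1:**
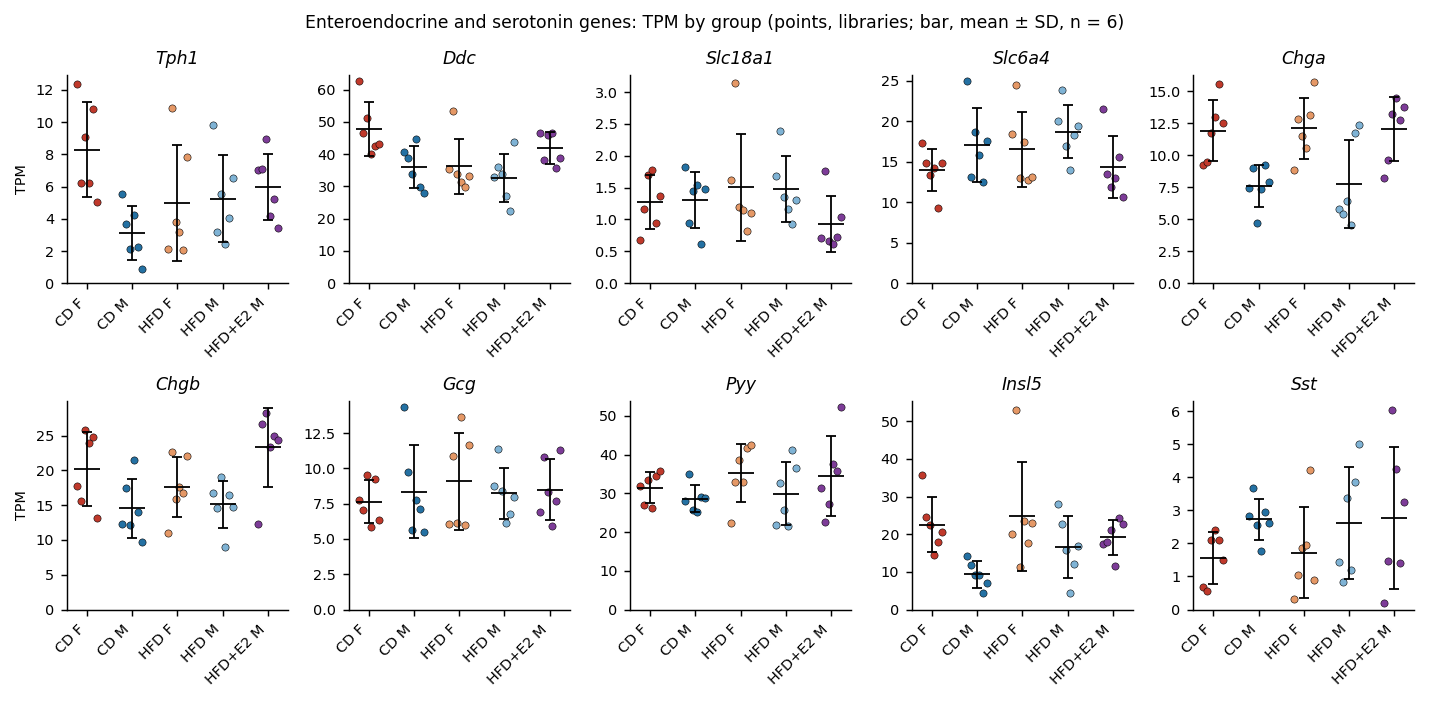
TPM of the 10 genes (vertical axes, linear from 0) in the 5 groups, with points for libraries and bars for the mean ± SD of 6 animals. Tph1 and Insl5 have their lowest mean in CD M (3.13 and 9.32 TPM), while Gcg, Pyy and Slc6a4 overlap across all groups.

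The genomic positions and the DNA just before the starts of the 5 genes called between the sexes on CD are given next, as the genes the comparisons turn on. On GRCm38, Tph1 (ENSMUSG00000040046) lies on chromosome 7 at 46647130-46672537, Ddc (ENSMUSG00000020182) on chromosome 11 at 11814101-11898144, and Insl5 (ENSMUSG00000066090) on chromosome 4 at 103017872-103026842, all on the minus strand. Chga (ENSMUSG00000021194) lies on chromosome 12 at 102554969-102565027 and Chgb (ENSMUSG00000027350) on chromosome 2 at 132781278-132795079, both on the plus strand. No exon of the 10 genes overlapped an exon of another annotated gene. RefSeq (GRCm38.p6) gave 13 start sites for 9 of the 10 genes, and the 250 bases before each were searched on both strands. For the full estrogen response element the arms GGTCA and TGACC were sought 3 bases apart. The E-box was sought as CACGTG and the AP-1 site as TGANTCA. The cAMP response element (CRE) was sought as TGACGTCA. The TATA box was sought as TATAAA. None of the 13 windows held the estrogen response element or the E-box, which were found in 0.0639% and 6.02% of all 32851 windows of this length. The AP-1 letters stood before the first Ddc start at -129 to -123 (6.75% of all windows held them), and the CRE letters stood before Chgb at -72 to -65 and before Sst at -48 to -41 (1.55% of all windows). The TATA letters stood before Ddc at -68 to -63, before Gcg and before both Insl5 starts (12.4% of all windows). These are matches of letters only. The windows before the first start of the genes past the threshold between the sexes on CD (Chgb left out, whose window lies inside the gene as the files place it) follow, 5′ to 3′ on the strand of the gene, with the matched letters in capitals, at chr7:46672538-46672787 (Tph1), chr11:11898145-11898394 (Ddc), chr12:102554691-102554940 (Chga) and chr4:103027272-103027521 (Insl5).
Tph1: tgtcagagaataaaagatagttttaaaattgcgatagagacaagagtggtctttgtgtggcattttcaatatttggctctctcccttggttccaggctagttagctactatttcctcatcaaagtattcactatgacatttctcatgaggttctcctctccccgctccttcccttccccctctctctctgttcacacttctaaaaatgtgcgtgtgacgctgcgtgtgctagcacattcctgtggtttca
Ddc: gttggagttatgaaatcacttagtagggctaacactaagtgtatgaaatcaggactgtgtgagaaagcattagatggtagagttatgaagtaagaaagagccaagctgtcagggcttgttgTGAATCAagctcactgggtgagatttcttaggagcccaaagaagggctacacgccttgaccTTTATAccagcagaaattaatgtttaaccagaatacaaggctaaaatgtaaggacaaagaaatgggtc
Chga: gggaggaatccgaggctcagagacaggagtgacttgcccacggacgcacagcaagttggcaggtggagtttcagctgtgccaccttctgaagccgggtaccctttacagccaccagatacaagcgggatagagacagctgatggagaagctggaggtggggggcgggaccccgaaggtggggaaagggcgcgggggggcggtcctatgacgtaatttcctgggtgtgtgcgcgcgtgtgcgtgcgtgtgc
Insl5: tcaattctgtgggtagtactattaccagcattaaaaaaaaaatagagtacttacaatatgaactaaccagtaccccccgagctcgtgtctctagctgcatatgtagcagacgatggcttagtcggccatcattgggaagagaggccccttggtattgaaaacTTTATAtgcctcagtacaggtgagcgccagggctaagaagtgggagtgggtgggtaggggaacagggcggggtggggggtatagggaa

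Which of these genes differ between the sexes on the control diet was asked first. On CD, Tph1, Ddc, Chga, Chgb and Insl5 were called higher in females, while Gcg, Pyy, Sst, Slc18a1 and Slc6a4 did not pass the test. Tph1 was 2.90-fold and Insl5 2.59-fold higher in CD F, and Chga 1.74-fold, Chgb 1.53-fold and Ddc 1.42-fold higher. A gene was called where the unadjusted p-value of edgeR's quasi-likelihood test was under 0.05 and the log2 fold change over 0.4, and 5 of the 10 genes were called higher and 0 lower. Of all 14922 genes tested, 2.94% were called higher in CD F and 9.15% in either direction. With p-values adjusted over all genes (Benjamini-Hochberg), 3 of the 10 were called, against 2.92% of all genes. The median log2 fold change of the 10 genes was 0.38, and that of all genes tested was 0.01.

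Tph1 had from 5.01 to 12.4 TPM in CD F (median 7.65) and from 0.867 to 5.57 TPM in CD M (median 2.97). On log2 CPM (counts per depth unit with no correction for length), the scale of the permutation tests, every CD F library lay above every CD M library. The log2 fold change was 1.54 (SE 0.25, edgeR adjusted p = 0.00403). Insl5, a relaxin-family hormone that raises food intake, had from 14.4 to 35.8 TPM in CD F (median 21.4) and from 4.39 to 14.3 TPM in CD M (median 9.15). Its groups did not overlap either, and its log2 fold change was 1.37 (SE 0.22, edgeR adjusted p = 0.00291). Of all genes tested, 0.717% had all CD F libraries above all CD M libraries. The exact permutation test gave Tph1 and Insl5 the smallest p it can give with 6 against 6 animals, 0.00216, which was 0.0541 after adjustment over the 50 tests of 10 genes in 5 comparisons.

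Ddc had from 40.2 to 62.6 TPM in CD F (median 44.9) and from 27.98 to 44.7 in CD M (median 36.4). Its groups overlapped slightly, with a log2 fold change of 0.50 (SE 0.11, edgeR adjusted p = 0.0165). Chga, the marker most widely used for enteroendocrine cells, had from 9.21 to 15.5 TPM in CD F (median 12.1) and from 4.69 to 9.20 in CD M (median 7.67). In TPM the lowest female stood just above the highest male, whereas the groups overlapped in log2 CPM. The log2 fold change was 0.80 (SE 0.21), with an edgeR adjusted p of 0.0505. Chgb had from 13.2 to 25.7 TPM in CD F (median 20.8) and from 9.77 to 21.4 in CD M (median 13.2), with a log2 fold change of 0.62 (SE 0.23, edgeR p = 0.0194, adjusted p = 0.208, exact permutation p = 0.0541). The call of Chgb was lost when CD F replicate 5 was left out (log2 fold change 0.48) and on log2 TPM (difference 0.47, exact permutation p = 0.0736).

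The L-cell hormones did not move as a group. Gcg was 7.62 ± 1.52 TPM in CD F and 8.35 ± 3.32 in CD M (SD, n = 6), with a log2 fold change of 0.10 (SE 0.22). Pyy, the satiety peptide, was 31.5 ± 3.96 and 28.6 ± 3.46 TPM, with a log2 fold change of 0.26 (SE 0.15, exact permutation p = 0.134). Thus, of the 3 hormones known from L cells, Insl5 was called and the other 2 were not. Sst was 1.56 ± 0.786 TPM in CD F and 2.73 ± 0.617 in CD M, with a log2 fold change of -0.60 (SE 0.35, exact permutation p = 0.0823). In TPM, all 6 CD F libraries lay below the CD M median. On log2 TPM the difference was -0.91 (exact permutation p = 0.0216). The transporters Slc18a1 (log2 fold change 0.10, SE 0.18) and Slc6a4 (-0.15, SE 0.14) were not called.

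Genes around the pathway gave a mixed picture. Of 14 tested genes of granules and prohormone processing, 1 was called, Resp18, which rose with a log2 fold change of 0.73 (SE 0.19, edgeR adjusted p = 0.0488) in CD F. Only 6 of the 14 had a log2 fold change over 0, and their median was -0.11 over all 14, so the rise of Chga and Chgb was not shared by this list. Pcsk1, the convertase that cuts the precursors of the gut hormones, was nearly level at 0.06 (SE 0.16). Of 14 tested transcription factors of the enteroendocrine lineage, 1 was called higher and 2 lower. Isl1 fell by 1.19 on the log2 scale (SE 0.20, edgeR adjusted p = 0.00416), Hhex, a factor of D cells, fell by 0.63 and Foxa2 rose by 0.43. Neurod1 did not pass the test (0.24, SE 0.25). Of 10 tested genes of serotonin handling, 1 was called, Slc18a2, the granule transporter of neurons and mast cells, which fell by 0.46 (SE 0.21, edgeR adjusted p = 0.322). Of 6 tested sensors of nutrients and bile acids, 3 were called, all higher in CD F. They were Ffar4, a receptor of long-chain fatty acids (0.83, SE 0.19, edgeR adjusted p = 0.029), the adrenergic receptor Adra2a (0.82, SE 0.26) and Olfr78, a receptor of short-chain fatty acids (0.56, SE 0.17). Of 3 tested genes of other gut peptides, Penk, which encodes enkephalins, fell by 1.12 (SE 0.31). None of the 3 tested serotonin receptors and the 8 tested hormone receptors was called.

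Markers of other cells differed between the same libraries. All 10 smooth muscle genes were called lower in CD F, 6 of them with an adjusted p under 0.05, and their summed level ranged from 2635 to 4089 TPM in CD F and from 4147 to 6888 TPM in CD M. Of 10 B cell genes, 5 were called higher, and their sum ranged from 16.4 to 76.6 TPM in CD F and from 1.75 to 60.2 in CD M. Of 7 goblet cell genes, 4 were called higher, Muc2, Fcgbp, Spdef and Tff3, and their sum ranged from 4236 to 5965 TPM in CD F and from 2729 to 5471 in CD M. Of 8 tested genes of surface colonocytes, 4 were called lower, Clca4a, Slc26a3, Car4 and Car1, and their sum ranged from 628 to 1100 TPM in CD F and from 862 to 1888 TPM in CD M. Of 2 tested mast cell genes, Kit was called higher (0.42, SE 0.11, edgeR adjusted p = 0.0404) and Cma1 lower (-0.76, SE 0.27, edgeR adjusted p = 0.169). Of genes that mark position along the colon, 0 of 5 distal and 0 of 2 tested proximal genes were called. The sum of the 3 listed proximal genes ranged from 15.0 to 72.8 TPM in CD F (median 25.7) and from 42.0 to 106 TPM in CD M (median 66.4). The part of position in the values of Insl5 was not tested. The mean log2 CPM of 5 epithelial genes (Epcam, Cdh1, Krt8, Vil1 and Cdx2) had overlapping ranges of 7.17 to 7.53 in CD F and 7.12 to 7.82 in CD M. With this epithelial score as a covariate, Tph1 had a log2 fold change of 1.72 and Insl5 of 1.49. With a smooth muscle score as a covariate the values were 1.40 and 1.07, and with a B cell score 1.32 and 1.18. All 5 genes kept the unadjusted threshold under each of these covariates, whereas the number with an adjusted p under 0.05 was 4 with the epithelial score, 1 (Chgb) with the smooth muscle score and 0 with the B cell score. Calls over all genes fell too. Of all genes tested, 435 had an adjusted p under 0.05 without a covariate, 215 with the smooth muscle score and 43 with the B cell score.

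Before the comparisons on HFD, libraries that stand apart have to be named. A score of squamous epithelium genes (keratins and other genes of the skin and of the anal lining) was over 1 in 6 of the 30 libraries, 4 of HFD F and 2 of HFD M. It ranged from 2.38 upward in these 6 and reached at most 0.19 in the other 24. The genes of the list were not absent elsewhere, with a summed level of 753 to 938 TPM in CD F and 475 to 1057 TPM in CD M. In reads, not scaled for depth, Tph1 was lower in all 6 than in the other libraries of their own group. In HFD F it had 32, 35, 34 and 50 reads in these 4 libraries and 104 and 175 in the other 2. In HFD M it had 20 and 25 reads in these 2 libraries and from 47 to 114 in the other 4. Low Tph1 was not particular to them, since CD M, where no score was over 1, had from 21 to 63 reads. For each comparison on HFD, edgeR results of some genes are therefore also given without these libraries, a choice made after seeing the data. The permutation tests, the order of groups, the differences between pairs of genes and the correlations are not given without them.

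The same sex comparison on HFD called 1 of the 10 genes, Chga, where 3.09% of all 15179 genes tested were called in either direction. Chga had from 8.84 to 15.7 TPM in HFD F (median 12.1) and from 4.56 to 12.4 in HFD M (median 6.13). Its log2 fold change was 0.68 (SE 0.28, edgeR p = 0.031, adjusted p = 0.872, exact permutation p = 0.0368), all 6 HFD F libraries lay above the HFD M median, and 4 of the HFD M libraries lay below every HFD F library in TPM. The call was lost in 6 of the 12 fits that left out a single library (0.55 to 0.62), those without HFD F replicate 5 or 6 or HFD M replicate 1, 2, 3 or 4. Without the 6 squamous libraries, which left 2 females and 4 males, 4 of the 10 genes were called, Tph1, Insl5 and Chgb higher (Chgb 0.47, SE 0.21) and Sst lower (-1.78, SE 0.64), and Chga was not (0.68, SE 0.40). With the squamous score as a covariate, 4 were called too, all higher, namely Tph1 (1.07), Insl5 (0.88), Chga (0.98) and Chgb (0.53). None of these passed after adjustment. The share of 3.09% belongs to the fit of all 12 libraries with no covariate. The share of all genes called in either of these later fits is not given. Whether 4 of 10 exceeds it was therefore not tested. Tph1 did not pass the test, with a median of 3.49 TPM in HFD F (2.06 to 10.9) and 4.79 in HFD M (2.44 to 9.81), and its log2 fold change of 0.42 (SE 0.48) had the opposite sign on log2 TPM (-0.21). Without the 6 squamous libraries it was 1.02 (SE 0.33) and passed the threshold, and without HFD F replicate 2 alone it was -0.06. Insl5 had a log2 fold change of 0.65 (SE 0.38, exact permutation p = 0.182), and of 1.10 (SE 0.30) without those libraries, where it passed the threshold. Around the pathway, St18, a factor of the enteroendocrine lineage, was called higher in HFD F (0.48, SE 0.20), and Vip and Penk were called lower (-0.69, SE 0.20 and -0.85, SE 0.28), all without an adjusted call. None of the tested serotonin receptors, hormone receptors, nutrient sensors, granule genes and serotonin handling genes was called.

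The response to HFD was compared within each sex, with the CD libraries that the sex comparison used too. In females, 1 of the 9 genes tested was called, Ddc, which fell, while 0.724% of all 15061 genes tested were called lower and 3.67% in either direction. Ddc had from 29.8 to 53.3 TPM in HFD F (median 33.5) and from 40.2 to 62.6 in CD F (median 44.9). All but 1 of the HFD F libraries lay below every CD F library in TPM, and the log2 fold change was -0.53 (SE 0.12, edgeR p = 0.000347, adjusted p = 0.383, exact permutation p = 0.00649). The adjusted p of Ddc was 0.00542 with DESeq2 and 0.0334 with all 30 libraries in one fit. Ddc was no longer called without the 4 squamous libraries (-0.27, SE 0.16) or with the squamous score as a covariate (-0.29, SE 0.14). Tph1 was 4.99 ± 3.59 TPM in HFD F against 8.29 ± 2.94 in CD F (SD, n = 6), with a log2 fold change of -0.72 (SE 0.40, exact permutation p = 0.0606). Its sign turned to 0.23 (SE 0.31) without the squamous libraries and to 0.16 with the squamous score. Without HFD F replicate 2, which had the highest Tph1 of its group, the log2 fold change was -1.19 and passed the threshold. Insl5 was 24.8 ± 14.5 against 22.6 ± 7.39 TPM (log2 fold change 0.05, SE 0.27), and Chga was 12.1 ± 2.37 against 11.9 ± 2.37 TPM (-0.08, SE 0.21). Sst had from 2 to 21 reads in HFD F and from 3 to 12 in CD F and did not pass the filter on low counts. Among genes around the pathway, Isl1 was called higher (0.95, SE 0.33) and Ffar4 (-0.68, SE 0.20) and Tac1 (-0.59, SE 0.21) lower, none after adjustment.

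In males, 1 of the 10 genes was called with HFD, Insl5, which rose, against 1.25% of all 14991 genes called higher and 2.90% in either direction. No gene (0% of those tested) had an adjusted p under 0.05 by edgeR, where 26 did with DESeq2 and 904 had an unadjusted p under 0.05 by edgeR. Insl5 had from 4.29 to 28.03 TPM in HFD M (median 16.3) and from 4.39 to 14.3 TPM in CD M (median 9.15). The groups overlapped, with 5 of 6 HFD M libraries above the CD M median and HFD M replicate 4 as low as the lowest CD M library. The log2 fold change was 0.77 (SE 0.32, edgeR adjusted p = 0.82), and the exact permutation p was 0.143. Without the 2 squamous libraries, 1 of which was replicate 4, it was 0.89 (SE 0.25) and stayed called. The call was lost in 5 of the 12 fits that left out a single library (0.61 to 0.76), those without CD M replicate 4, 5 or 6 or HFD M replicate 1 or 2, and with a smooth muscle score (0.39) or a B cell score (0.54) as a covariate. Tph1 was 5.26 ± 2.69 TPM in HFD M and 3.13 ± 1.70 in CD M, with a log2 fold change of 0.40 (SE 0.33, exact permutation p = 0.446), and of 0.72 (SE 0.28) without the squamous libraries, where it passed the threshold. Chga, Chgb, Gcg, Pyy and Sst had log2 fold changes between 0.02 and 0.05. Outside the 10 genes, the somatostatin receptor Sstr1 was called higher (1.03, SE 0.22, edgeR adjusted p = 0.307), and no gene of serotonin handling, granules, lineage factors or nutrient sensors was called. Of 2 tested genes of proximal colon position, 1 was called lower, and 0 of 5 distal genes were called. The summed level of the proximal list had a mean of 46.3 TPM in HFD M and 67.8 TPM in CD M. The part of position in the value of Insl5 was not tested.

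Whether the diet response differs between the sexes was tested directly by the interaction of sex and diet in the 24 vehicle libraries, which called 0 of the 10 genes and 5.18% of all 15800 genes tested. No gene (0% of those tested) had an adjusted p under 0.05 by edgeR, against 7 with DESeq2 and 1066 at an unadjusted p under 0.05 by edgeR. Female response minus male response on the log2 scale was -1.12 for Tph1 (SE 0.57, edgeR adjusted p = 0.736), -0.73 for Insl5 (SE 0.46, edgeR adjusted p = 0.757) and -0.32 for Ddc (SE 0.17, edgeR adjusted p = 0.741). Without the squamous libraries that of Tph1 was -0.51 (SE 0.44). It passed the unadjusted threshold in 6 of the 24 fits that left out a single library (-1.25 to -1.61), those without CD F replicate 6, CD M replicate 2, HFD F replicate 2 or 6, or HFD M replicate 2 or 4, and with the epithelial score as a covariate (-1.25). Among the other pathway genes, Resp18 (-0.82, SE 0.32), Ffar4 (-0.91, SE 0.35) and Pcbd1 (-0.57, SE 0.22), an enzyme that recycles the cofactor of Tph1, were called lower, as was the factor Lmx1a (-1.14, SE 0.53), and Isl1 (1.15, SE 0.50) and Hhex (1.02, SE 0.43) were called higher. None of them passed after adjustment.

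E2 in HFD males was compared with vehicle on the same diet. Tph1, Ddc, Chga and Chgb were called higher and Slc18a1 lower, so that 5 of the 10 genes passed the unadjusted threshold, and 0 passed after adjustment. Of all 15010 genes tested, 2.63% were called higher, 3.24% lower and 5.87% in either direction, and 0.00666% passed after adjustment. The median log2 fold change of the 10 genes was 0.38, and that of all genes was 0.00. HFD M served as the control here and as the treated group in the diet comparison of males, so the comparisons are not independent.

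Chgb had from 12.2 to 28.2 TPM in HFD+E2 M (median 24.6) and from 9.00 to 19.1 in HFD M (median 15.6). The groups overlapped through HFD+E2 M replicate 1, the lowest of its group, while the other 5 lay above every HFD M library in TPM. The log2 fold change was 0.81 (SE 0.23, edgeR p = 0.00344, adjusted p = 0.454, exact permutation p = 0.0195). Chga had from 8.22 to 14.5 TPM (median 13.0) against 4.56 to 12.4 (median 6.13), with all 6 treated libraries above the HFD M median and a log2 fold change of 0.77 (SE 0.27, edgeR p = 0.0108, adjusted p = 0.455, exact permutation p = 0.0216). Ddc had from 35.8 to 46.7 TPM (median 42.3) against 22.5 to 43.8 (median 33.3), with a log2 fold change of 0.50 (SE 0.12, edgeR p = 0.000503, adjusted p = 0.389, exact permutation p = 0.00433). The adjusted p of Ddc was 0.0326 with DESeq2, and all 6 treated libraries lay above the HFD M median.

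Tph1 had from 42 to 233 reads in HFD+E2 M and from 20 to 114 in HFD M, with a log2 fold change of 0.86 (SE 0.33, edgeR adjusted p = 0.461). In TPM the difference was much smaller, 5.99 ± 2.06 against 5.26 ± 2.69 (SD, n = 6), and on log2 TPM it was 0.26 (exact permutation p = 0.472), where log2 CPM gave 0.92 (p = 0.0433 by the same exact test). The counts and the TPM come from separate tools, and which of them follows Tph1 better was not tested. The call was also lost without HFD+E2 M replicate 3, which had the most Tph1 reads (log2 fold change 0.66). Slc18a1 was 0.922 ± 0.439 TPM in HFD+E2 M and 1.47 ± 0.516 in HFD M. It fell while Tph1 and Ddc were called higher, with a log2 fold change of -0.43 (SE 0.19, edgeR p = 0.04, adjusted p = 0.479, exact permutation p = 0.0173), and its call was lost in 7 of the 12 fits that left out a single library (-0.35 to -0.42), those without HFD M replicate 1, 2 or 3 or HFD+E2 M replicate 1, 3, 4 or 5.

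The hormones did not pass the test with E2. The log2 fold change was 0.20 for Gcg (SE 0.21), 0.37 for Pyy (SE 0.23), 0.40 for Insl5 (SE 0.30) and 0.27 for Sst (SE 0.51), and that of the serotonin transporter Slc6a4 was -0.19 (SE 0.16). Among lineage factors, 3 of 15 tested were called, all higher, namely Mnx1, a factor of enterochromaffin cells (1.20, SE 0.36), Pax6 (0.75, SE 0.32) and St18 (0.55, SE 0.19). Neurod1 was 0.44 (SE 0.33) and not called. Of 14 granule genes, Ptprn2, a granule membrane protein, was called higher (0.43, SE 0.13). Adra2a (0.76, SE 0.27) and the somatostatin receptor Sstr2 (0.74, SE 0.30) were called higher, and the Pyy receptor Npy2r (-0.75, SE 0.30) lower. Of the serotonin receptors, Htr3a, the ion channel of enteric neurons, fell by 0.80 (SE 0.20, edgeR adjusted p = 0.389). Pcbd1 fell by 0.54 (SE 0.18), and the neuropeptides Vip (-0.44, SE 0.16) and Tac1 (-0.52, SE 0.22) were called lower. None of these passed after adjustment. Markers of enteric neurons were lower in most cases between the same libraries, with a log2 fold change under 0 in 9 of the 10 tested and a median of -0.23. The RNA-binding protein gene Elavl4 was called lower (-0.51, SE 0.20, edgeR adjusted p = 0.461), and the other 9 were not called. Their summed level ranged from 17.9 to 33.9 TPM in HFD+E2 M (mean 26.2) and from 27.1 to 44.1 TPM in HFD M (mean 35.3). Their part in the values of Htr3a, Vip and Tac1 was not tested.

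The epithelial score stood higher in HFD+E2 M, with overlapping ranges. It was 7.40 to 7.99 in HFD+E2 M (median 7.58) and 7.05 to 7.57 in HFD M (median 7.30). Its 5 genes belong to a list of 11 crypt epithelium genes. Of the 10 tested on that list, 0 were called higher and 2 lower, with a median log2 fold change of 0.02. The summed level of the list had a mean of 2141 TPM in HFD+E2 M and 2344 TPM in HFD M. Whether epithelial content differed was not tested. With the epithelial score as a covariate, none of the 5 calls was kept, and the log2 fold changes were 0.37 for Tph1, 0.38 for Ddc, 0.47 for Chga, 0.56 for Chgb and -0.48 for Slc18a1. Over all genes tested, 533 were called with this covariate, against 881 without it. Of 7 goblet cell genes, 3 were called higher (Muc2 at 0.52, Spdef at 0.48 and Fcgbp at 0.42), 0 of them after adjustment. Zg16 (0.47), Clca1 (0.25), Agr2 (-0.13) and Tff3 (-0.07) were not called, and the sum of the 7 ranged from 3913 to 5859 TPM in HFD+E2 M and from 2576 to 5853 in HFD M. Without the 2 squamous libraries of HFD M, Ddc (0.45, SE 0.14) and Chgb (0.65, SE 0.24) were called, and Tph1 (0.53, SE 0.29), Chga (0.54, SE 0.27) and Slc18a1 (-0.38, SE 0.22) were not. Over all genes, 530 were called without these 2 libraries.

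Across groups, no neighbours in the order of levels could be told apart after adjustment. For Tph1 the order by mean TPM was CD F, HFD+E2 M, HFD M, HFD F and CD M, and for Insl5 it was HFD F, CD F, HFD+E2 M, HFD M and CD M. The order depended on the scale, since in mean log2 CPM, on which the neighbours were tested, HFD M lay below HFD F for Tph1 (difference -0.27) and HFD F below CD F for Insl5 (-0.06). Of the 40 differences between neighbouring groups over the 10 genes, 0 passed an exact permutation test after adjustment (lowest adjusted p = 0.577). The lowest raw values were 0.0325 for Chga between CD F and HFD M and 0.0433 for Tph1 between HFD+E2 M and HFD M and for Ddc between HFD+E2 M and HFD F.

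Setting Tph1 and the hormones beside Chga of the same library asks whether they moved more than the granule gene did. Tph1 minus Chga in log2 CPM was -0.86 ± 0.68 in CD F and -1.60 ± 0.50 in CD M (SD, n = 6), a difference of 0.74 (exact permutation p = 0.0519). Tph1 minus Chgb differed by 0.91 (exact permutation p = 0.013), and Insl5 minus Chga by 0.62 (p = 0.16 by the same exact test). Ddc minus Chga differed by -0.26 (exact permutation p = 0.361). The hormones Pyy and Gcg lay lower against Chga in CD F, by 0.52 (exact permutation p = 0.00649) and 0.64 (p = 0.0411 by the same exact test). The same held for Pyy on HFD, with a difference of -0.44 between HFD F and HFD M (exact permutation p = 0.0173), and with E2, at -0.45 (exact permutation p = 0.0325). With E2, Tph1 minus Chga differed by 0.06, and the sign turned on log2 TPM with 0.1 added (-0.45, exact permutation p = 0.329). None of the 30 differences in log2 CPM (6 pairs in 5 comparisons) passed after adjustment, the lowest adjusted p being 0.173.

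**Figure D2:**
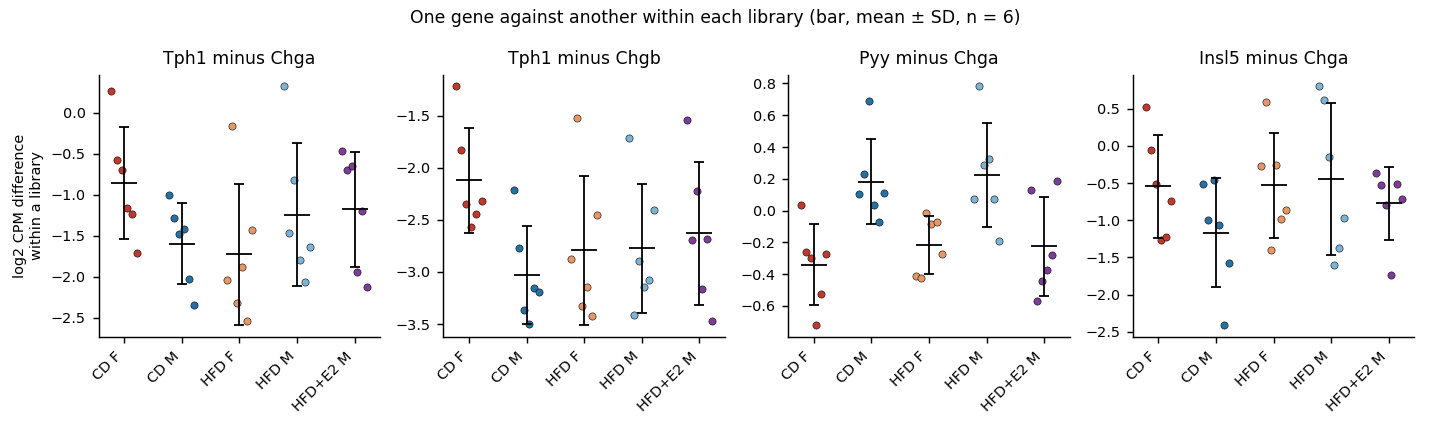
Difference in log2 CPM between a pair of genes within each library (vertical axes) in the 5 groups, with points for libraries and bars for the mean ± SD of 6 animals. Pyy minus Chga has a mean of -0.34 in CD F and 0.18 in CD M, and Tph1 minus Chgb a mean of -2.12 in CD F and -3.03 in CD M.

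Libraries of the same group also differed from each other. After the group mean was taken off, Tph1 and Ddc had a Pearson r of 0.70 over the 30 libraries (Spearman rho 0.69, permutation p = 0.00017 and 0.00013, adjusted over 9 pairs 0.00153 and 0.00081), and 0.63 without the 2 libraries farthest from the median of Tph1. Gcg and Insl5 had an r of 0.63 (rho 0.69, permutation p = 0.00066 and 0.00018, adjusted 0.00198 and 0.00081, r without 2 libraries 0.65). Chga and Chgb had an r of 0.62 (rho 0.60, permutation p = 0.00039 and 0.00119, adjusted 0.00175 and 0.00357, r without 2 libraries 0.66). Tph1 and Chgb had an r of 0.50 (rho 0.53, permutation p = 0.0075 and 0.00425, adjusted 0.0169 and 0.00956, r without 2 libraries 0.54). The other 5 pairs did not pass. Tph1 and Chga had an r of 0.22 (rho 0.24, permutation p = 0.305 and 0.238, adjusted 0.458 and 0.357). Gcg and Pyy had an r of 0.37 (rho 0.28), Tph1 and Slc18a1 of 0.17 (rho 0.08), Pyy and Insl5 of 0.04 (rho -0.07), and Tph1 and the mast cell gene Cpa3 of -0.08 (rho 0.00), with adjusted permutation p-values from 0.118 to 1.0.

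**Figure D3:**
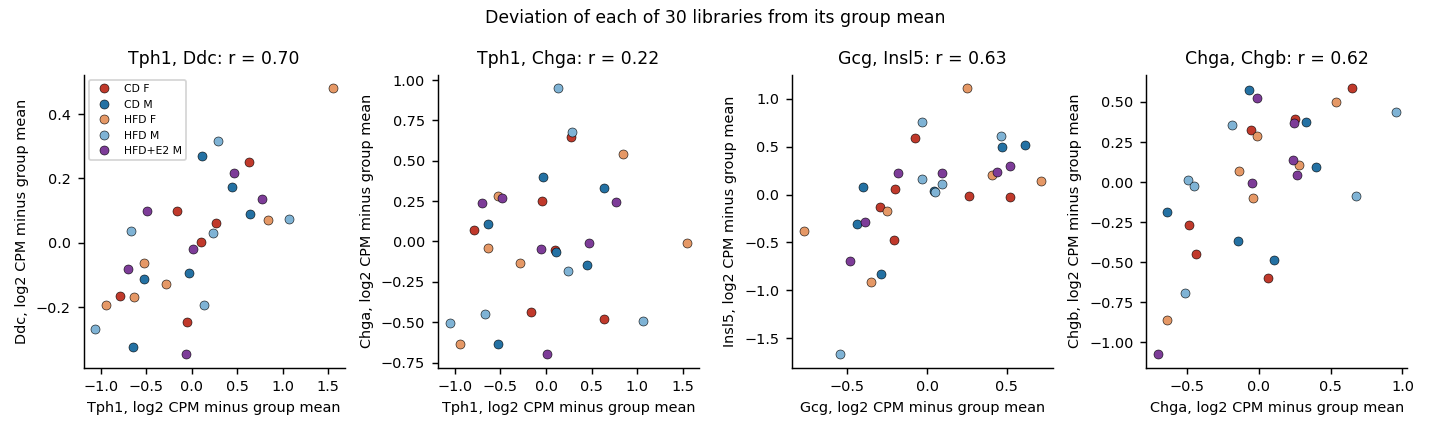
Deviation of each of the 30 libraries from its group mean in log2 CPM for 4 pairs of genes, with colours for the groups. Tph1 and Ddc rise together (r = 0.70), whereas Tph1 and Chga do so less (r = 0.22).

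As a description of the remaining pairs, with no test, Insl5 went with Tph1 (r = 0.67) and Ddc (r = 0.59), and Pyy and Sst went with Chga (r = 0.80 and 0.72) and with each other (r = 0.63). Insl5 and Chga had an r of -0.01, and Tph1 and Pyy of -0.02. Slc18a1 and Slc6a4 had an r of 0.52 with each other and of -0.22 and -0.34 with Chga. All points share the depth and tissue content of their library. The part of the squamous libraries in the correlations was not tested. The genes most like each of the 10 among 14909 genes with a mean of at least 1 CPM were sought in the same way. They were Muc2 (r = 0.85), the main mucin of goblet cells, Scin (0.84) and the mucin-type glycosyltransferase Gcnt3 (0.82) for Tph1, and Dpysl3, Adgre5 and Cnpy2 (0.75, 0.74 and 0.73) for Ddc. For Chga they were Aldh2, Foxa2 and Creb3l1 (all 0.81), for Pyy Foxa2 (0.80), Chga (0.80) and 2310039H08Rik (0.78), and for Chgb Ctsz, Bcas1 and Snx3 (all 0.83). For Gcg they were Clca1 (0.82), also made by goblet cells, Rep15 (0.78) and Mptx1 (0.77), and for Insl5 Gm1123 (0.86), Hepacam2 (0.84) and Plbd1 (0.82). For Sst, with few reads, they were Ino80b, Kifc2 and Glis3 (0.82, 0.81 and 0.80), for Slc6a4 Atp5c1, Plin2 and Eif2s3x (0.84, 0.84 and 0.80), and for Slc18a1 Birc3, Acsm3 and Narf (0.69, 0.68 and 0.67).

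**Figure D4:**
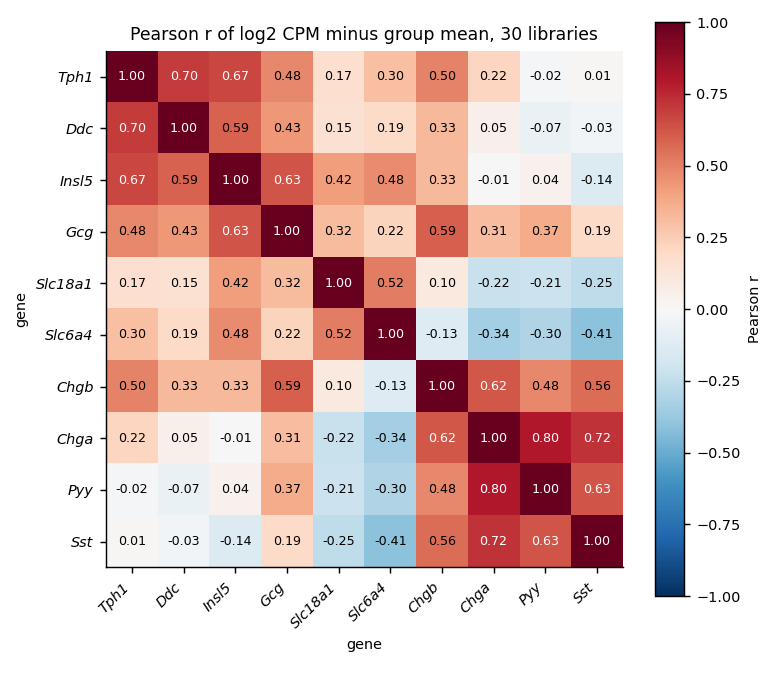
Pearson r between each pair of the 10 genes over 30 libraries, on log2 CPM minus the group mean, with red for positive and blue for negative values. Tph1, Ddc and Insl5 have values from 0.59 to 0.70 with each other, and Chga, Pyy and Sst values from 0.63 to 0.80.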

How the data were processed

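Colon RNA libraries of 30 mice, with ribosomal RNA removed, were mapped by the authors to GRCm38 (mm10) with STAR, as the study's methods and notes state. The authors deposited counts per gene made with featureCounts, without normalization, and TPM values made with StringTie, both used as deposited. The strand setting of the counting is not given in the sources used here. Counts per library ranged from 8667177 to 17243712 (median 11530915), with 26.1% to 38.0% on mitochondrial genes. 0 pairs of libraries were identical, and the labels name no batch.

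Groups follow the labels of diet, sex and treatment. The 12 libraries of each comparison were fitted by edgeR 4.0.16 in R 4.3.3 (filterByExpr, TMM, robust quasi-likelihood F-test), and the interaction used 24 libraries. The threshold (p under 0.05, log2 fold change over 0.4) is the study's, whose text does not say whether its p was adjusted. Adjusted p-values are Benjamini-Hochberg over all genes tested, and SEs follow from the F statistic. Permutation tests were two-sided, on log2 CPM with a prior count of 2, and correlations used 100000 permutations within groups. Scores are the mean log2 CPM of a list's genes.

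Beside the 10 genes, named genes were Tph2, Slc18a2, Neurog3, Neurod1, Pcsk1, Cck, Nts and Cpa3, up to 4 genes per list with the smallest p among those called, and the 3 most alike genes of each of the 10. Not all were described. The genes and the 18 lists were chosen with earlier results of these data known. Alternatives were DESeq2 1.42.0, its size factors, 2 other filters on low counts, the replicate number as a block, all 30 libraries in one fit, each library left out, and squamous, smooth muscle and B cell scores as covariates. An epithelial score, the omission of libraries with a squamous score over 1 and log2 TPM (0.1 added) were added after the data were seen. The fits were tested on simulated counts.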

Additional observations from a re-analysis of the deposited data

Results flagged for a closer look

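In 80 groups of 6 values (10 genes and 6 pairs of genes in 5 groups), Dixon's test marked 5 values as far from the rest of their group, and chance marks about 1 in 20 groups. Slc18a1 was highest in HFD F replicate 2, with a log2 CPM of 2.53 against 2.01 in the next library. That library also had the most Tph1, Ddc and Insl5 reads of its group. In HFD+E2 M replicate 1, Chga (log2 CPM 3.48, next 4.13) and Chgb (4.55, next 5.62) were the lowest of the group, while its Tph1 (7.05 TPM) lay within the group. Insl5 was lowest in HFD M replicate 4, with a log2 CPM of 1.20 against 2.89 in the next, and this library had a squamous score over 1. Insl5 minus Chga was lowest in HFD+E2 M replicate 4, at -1.74 against -0.79. What sets these libraries apart was not tested.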

How the results depend on the processing

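Same-numbered libraries did not deviate together in every pair (the correlation of deviations was over 0.1 in 5, 2, 3, 5 and 3 of 6 pairs in the order of the comparisons above, and 4, 1, 0, 2 and 3 of 6 libraries were closest to their own number), so the replicate number was not taken to pair animals. DESeq2 size factors moved no count by over 1.5 times. The epithelial score, the omission of libraries with a high squamous score and the tests on log2 TPM were chosen after seeing the data. Depth limits Sst, with 2 to 51 reads per library, and Slc18a1, with 27 to 67, most. On simulated counts of the sex comparison on CD (14922 genes, 200 changed 2-fold), 79.6% of changed genes were recovered after adjustment.

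The number of genes past the unadjusted threshold, past it after adjustment, and the number of the 10 genes among them moved most with the processing, and the cause was not tested except where fewer libraries or genes entered. As reported, these were 1366 genes at the threshold, 435 genes after adjustment and 3 of the 10 after adjustment in CD F vs CD M, 469 genes at the threshold, 15 genes after adjustment and 1 of the 10 at the threshold in HFD F vs HFD M, 553 genes at the threshold, 3 genes after adjustment and 0 of the 10 after adjustment in HFD F vs CD F, 434 genes at the threshold, 0 genes after adjustment and 1 of the 10 at the threshold in HFD M vs CD M, 881 genes at the threshold, 1 gene after adjustment, 5 of the 10 at the threshold and 0 of the 10 after adjustment in HFD+E2 M vs HFD M, 818 genes at the threshold, 0 genes after adjustment and 0 of the 10 at the threshold in the interaction of sex and diet. Below, a gene name is followed by its log2 difference where the sign changed. With no filter on low counts, there were 2253 genes at the threshold in CD F vs CD M, 1165 genes at the threshold in HFD F vs HFD M, 1496 genes at the threshold and Slc18a1 at -0.0061 in HFD F vs CD F, 1056 genes at the threshold in HFD M vs CD M, 1805 genes at the threshold and 3 genes after adjustment in HFD+E2 M vs HFD M, 1543 genes at the threshold and 1 gene after adjustment in the interaction of sex and diet. With the B cell score as a covariate, there were 869 genes at the threshold, 43 genes after adjustment, 0 of the 10 after adjustment and Gcg at -0.18 in CD F vs CD M, 1 gene after adjustment and Chga at 0.044 in HFD F vs CD F, 2 genes after adjustment, 0 of the 10 at the threshold, Chga at -0.052, Gcg at -0.056 and Sst at -0.037 in HFD M vs CD M, Sst at -0.024 in HFD+E2 M vs HFD M, Chga at 0.071 in the interaction of sex and diet. With the replicate number as a block (replicate block), there were 941 genes after adjustment in CD F vs CD M, 12 genes after adjustment and Insl5 at -0.039 in HFD F vs CD F, 2 genes after adjustment, Chga at -0.047, Pyy at -0.012 and Sst at -0.077 in HFD M vs CD M, 7 genes after adjustment in HFD+E2 M vs HFD M, 1 gene after adjustment in the interaction of sex and diet. With the smooth muscle score, there were 215 genes after adjustment and 1 of the 10 after adjustment in CD F vs CD M, 749 genes at the threshold and Tph1 at -0.0016 in HFD F vs HFD M, 0 of the 10 at the threshold, Slc6a4 at -0.037 and Gcg at -0.11 in HFD M vs CD M, 563 genes at the threshold, 2 genes after adjustment and Sst at -0.076 in HFD+E2 M vs HFD M, 505 genes at the threshold, Pyy at -0.061 and Sst at -0.56 in the interaction of sex and diet. With DESeq2, there were 774 genes after adjustment in CD F vs CD M, 730 genes at the threshold and 50 genes after adjustment in HFD F vs HFD M, 1018 genes at the threshold, 214 genes after adjustment and 1 of the 10 after adjustment in HFD F vs CD F, 26 genes after adjustment in HFD M vs CD M, 38 genes after adjustment and 1 of the 10 after adjustment in HFD+E2 M vs HFD M, 7 genes after adjustment and 1 of the 10 at the threshold in the interaction of sex and diet. With at least 10 counts required in every library, there were 1 gene after adjustment in HFD F vs HFD M, 0 genes after adjustment in HFD F vs CD F. With the 6 high squamous libraries left out, there were 8 genes after adjustment, 4 of the 10 at the threshold, Slc18a1 at 0.25 and Slc6a4 at 0.16 in HFD F vs HFD M, Tph1 at 0.23, Chga at 0.16 and Chgb at 0.048 in HFD F vs CD F, 1 gene after adjustment and 2 of the 10 at the threshold in HFD M vs CD M, 530 genes at the threshold, 0 genes after adjustment, 2 of the 10 at the threshold and Sst at -0.037 in HFD+E2 M vs HFD M, 332 genes at the threshold, Slc18a1 at 0.16 and Sst at -1.17 in the interaction of sex and diet. With all 30 libraries in one fit, there were 30 genes after adjustment and 2 of the 10 at the threshold in HFD F vs HFD M, 86 genes after adjustment and 1 of the 10 after adjustment in HFD F vs CD F, 3 genes after adjustment in HFD M vs CD M, 0 genes after adjustment in HFD+E2 M vs HFD M, 1 gene after adjustment and 1 of the 10 at the threshold in the interaction of sex and diet. With the squamous score, there were 4 of the 10 at the threshold in HFD F vs HFD M, 347 genes at the threshold, 1 gene after adjustment, Tph1 at 0.16, Chga at 0.23 and Chgb at 0.083 in HFD F vs CD F, 2 of the 10 at the threshold in HFD M vs CD M, 504 genes at the threshold, 3 of the 10 at the threshold and Sst at -0.019 in HFD+E2 M vs HFD M, 444 genes at the threshold and Chga at 0.22 in the interaction of sex and diet. With the epithelial score, there were 2 of the 10 at the threshold in HFD F vs HFD M, 8 genes after adjustment and Chga at 0.029 in HFD F vs CD F, 655 genes at the threshold and 2 of the 10 at the threshold in HFD M vs CD M, 533 genes at the threshold, 0 genes after adjustment, 0 of the 10 at the threshold and Gcg at -0.023 in HFD+E2 M vs HFD M, 1 gene after adjustment, 1 of the 10 at the threshold and Gcg at -0.048 in the interaction of sex and diet. With log2 TPM (0.1 added) in place of counts, the sign changed for Slc18a1 at -0.031 and Gcg at -0.071 in CD F vs CD M, Tph1 at -0.21 in HFD F vs HFD M, Chga at 0.021 in HFD F vs CD F, Chga at -0.052 and Sst at -0.30 in HFD M vs CD M, Sst at -0.18 in HFD+E2 M vs HFD M. With log2 TPM (0.1 added) for pairs of genes, the sign changed for Tph1 minus Chga at -0.45 and Tph1 minus Chgb at -0.35 in HFD+E2 M vs HFD M. With 1 added in place of 0.1, the sign changed for Tph1 minus Chga at -0.43 and Tph1 minus Chgb at -0.37 in HFD+E2 M vs HFD M. With the group means left in, Pearson r moved for Tph1 and Chga at 0.51, Tph1 and Cpa3 at -0.35 and Pyy and Insl5 at 0.26. Without the 2 farthest libraries, the sign of r changed for Tph1 and Slc18a1 at -0.086 and Pyy and Insl5 at -0.020. With a single library left out at a time, the ranges were 244 to 691 genes after adjustment and Gcg at -0.028 to 0.24 in CD F vs CD M, 363 to 770 genes at the threshold, 0 to 2 of the 10 at the threshold, Tph1 at -0.061 to 0.71, Slc6a4 at -0.16 to 0.041, Tph1 minus Chgb at -0.27 to 0.19 and Insl5 minus Chga at -0.31 to 0.17 in HFD F vs HFD M, 1 to 11 genes after adjustment, 1 to 2 of the 10 at the threshold, 0 to 1 of the 10 after adjustment, Slc18a1 at -0.13 to 0.079, Chga at -0.21 to 0.071, Gcg at -0.054 to 0.25, Pyy at -0.012 to 0.23, Insl5 at -0.26 to 0.19, Gcg minus Chga at -0.033 to 0.24 and Insl5 minus Chga at -0.21 to 0.23 in HFD F vs CD F, 346 to 706 genes at the threshold, 0 to 2 genes after adjustment, 0 to 1 of the 10 at the threshold, Slc6a4 at -0.0017 to 0.21, Chga at -0.22 to 0.14, Chgb at -0.074 to 0.15, Gcg at -0.068 to 0.19, Pyy at -0.17 to 0.16, Sst at -0.20 to 0.19, Ddc minus Chga at -0.27 to 0.070, Gcg minus Chga at -0.050 to 0.31 and Pyy minus Chga at -0.068 to 0.14 in HFD M vs CD M, 557 to 1497 genes at the threshold, 1 to 2 genes after adjustment, 3 to 6 of the 10 at the threshold, Sst at -0.13 to 0.50, Tph1 minus Chga at -0.10 to 0.38 and Tph1 minus Chgb at -0.073 to 0.36 in HFD+E2 M vs HFD M, 641 to 1418 genes at the threshold, 0 to 1 gene after adjustment, 0 to 3 of the 10 at the threshold, Slc6a4 at -0.018 to 0.19, Chga at -0.25 to 0.13, Gcg at -0.092 to 0.22, Pyy at -0.076 to 0.25 and Sst at -0.50 to 0.24 in the interaction of sex and diet.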
